A study of Mus musculus with 9 samples.

Results

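Cholesterol synthesis, uptake and efflux were described through 32 genes, picked by name from the count table by their gene symbol, of 55450 genes in all. They encode the sterol-sensing control of the pathway (Srebf1, Srebf2, Scap, Insig1, Insig2), 16 enzymes of synthesis, the liver X receptors Nr1h2 and Nr1h3 (LXRbeta and LXRalpha), 5 genes of efflux or known as LXR targets (Abca1, Abcg1, Apoe, Mylip, Lpcat3), and 4 genes of sterol transport and storage (Npc1, Npc2, Stard4, Soat1). All 32 were in the table and all 32 passed the filter on low counts. They were read in IMM cells, an immortalized mouse macrophage line with the genotype given as WT, grown in serum-containing DMEM. A control group had no lipopolysaccharide (LPS, 0 min), and the others had 100 ng/mL LPS for 30 min or for 60 min, with 3 libraries of ribosome-depleted total RNA, described as biological replicates, in each. No library without LPS was analysed at 30 or 60 min, so LPS, handling and time cannot be told apart, and all groups come from 1 line.

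A cell holds its cholesterol level through opposed transcription programs. When membranes of the endoplasmic reticulum are poor in sterol, Scap carries the precursor proteins SREBP-1 and SREBP-2 (from Srebf1 and Srebf2) to the Golgi, where they are cut, and the released parts switch on genes of synthesis and uptake. Insig proteins hold Scap back when sterol is plentiful. When sterols accumulate, oxysterols activate the LXRs, which switch on export through Abca1 and Abcg1. Macrophages rely on this export because they take up lipid-rich debris and lipoproteins.

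Promoter sequence is shown for 4 genes: Insig1, Srebf2 and Abca1, the members that were higher after 60 min of LPS, and Hmgcs1, an enzyme gene of the same pathway whose RNA did not pass the test at any time. The sequences are RefSeq's, build GRCm38.p6, up to 250 bases before the annotated start, 5′ to 3′ on the gene's strand, ended where the GENCODE gene begins if that comes first. Capitals mark matches to the motifs described after the sequences.
Abca1 (chr4:53159896-53160145, minus strand): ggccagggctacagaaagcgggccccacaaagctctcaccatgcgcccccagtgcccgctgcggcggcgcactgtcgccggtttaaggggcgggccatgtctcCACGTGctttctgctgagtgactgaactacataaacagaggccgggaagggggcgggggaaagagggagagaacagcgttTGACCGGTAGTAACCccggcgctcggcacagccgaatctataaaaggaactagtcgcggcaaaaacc
Insig1 (chr5:28071162-28071362, plus strand): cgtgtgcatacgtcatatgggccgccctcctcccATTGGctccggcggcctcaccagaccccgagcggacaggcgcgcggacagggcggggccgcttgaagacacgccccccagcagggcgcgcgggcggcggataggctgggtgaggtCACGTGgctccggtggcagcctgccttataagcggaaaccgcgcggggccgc
Srebf2 (chr15:82147019-82147180, plus strand): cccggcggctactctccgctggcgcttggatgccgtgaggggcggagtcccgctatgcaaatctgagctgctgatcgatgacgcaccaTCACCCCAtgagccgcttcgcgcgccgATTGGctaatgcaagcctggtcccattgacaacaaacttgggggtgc
Hmgcs1 (chr13:119690101-119690350, plus strand): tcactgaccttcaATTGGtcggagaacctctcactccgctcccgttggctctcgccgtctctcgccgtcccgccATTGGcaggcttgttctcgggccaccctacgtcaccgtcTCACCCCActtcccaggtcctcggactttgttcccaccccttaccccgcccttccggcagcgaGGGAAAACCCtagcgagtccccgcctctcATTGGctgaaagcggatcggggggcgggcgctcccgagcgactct

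The motifs were searched on both strands in the 250 bases before each start, and 26 of the 32 members had an entry. The members without an entry, Fdps, Fdft1, Sqle, Abcg1, Npc1 and Stard4, were not searched, so nothing is known here of their motifs. A member was counted if any of its windows matched, and Srebf1 and Dhcr7 had more than 1 window. The shares given beside the members are of single windows, so the units are unlike. The motifs were chosen after some sequences had been seen, so the counts set beside these shares are not a test. The DR4 form bound by LXR with its partner RXR, a direct repeat of GGTNA, was found for Abca1, at bases -67 to -53 from the start, and for Srebf1, at bases -182 to -168 from 1 of its starts. It was in 0.621% of all 32851 promoter windows. The core of the sterol regulatory element bound by SREBPs (TCACNCCA) was found for Srebf2, Hmgcs1, Msmo1 and Apoe, against 3.67% of all windows. The NF-Y box (CCAAT), which often stands beside sterol regulatory elements, was found for 20 of the 26 members, Insig1, Srebf2 and Hmgcs1 among them, against 33.8% of all windows. The E-box CACGTG was found for 6 members, Abca1 and Insig1 among them (6.02% of windows), and an NF-kB form for Hmgcs1, Mvd, Soat1 and Srebf1 (4.11%). Srebf2, Hmgcs1 and Msmo1 held both the sterol element and the NF-Y box. Their log2 changes were 0.12 (SE 0.033), 0.02 (SE 0.050) and 0.12 (SE 0.040) at 30 min. At 60 min they were 0.23 (SE 0.033), -0.02 (SE 0.050) and 0.07 (SE 0.040). Hmgcs1 and Msmo1 were not called at either time, and the call of Srebf2 at 30 min was lost in 14 of 17 alternatives. A link between motif and change was not tested.

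Library totals were 26867428 to 30402308 counts. Levels are in CPM, a gene's share of its library's count scaled up by a fixed factor, with totals scaled by TMM, and 10 counts were worth 0.324 to 0.367 CPM. Macrophage markers (7 of 7 detected, Csf1r and Cd68 among them) summed to 1760 to 1830 CPM at 0 min, 1850 to 1870 CPM at 30 min and 1850 to 1960 CPM at 60 min. The summed markers of fibroblasts, epithelium, T cells, B cells and hepatocytes each stayed at or under 0.384 CPM in every library. LPS-response genes moved at both times: Tnf was at 43.8 to 52.2 CPM at 0 min, 279 to 446 CPM at 30 min and 516 to 582 CPM at 60 min. Nfkbia was at 18.0 to 19.7, 145 to 209 and 382 to 396 CPM. In bulk RNA, fewer cells of a kind and less RNA per cell cannot be told apart.

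The largest change among the called cholesterol genes was that of the exporter gene Abca1. Abca1 RNA was 2.05-fold higher at 60 min, and the sterol sensor gene Insig1 was 1.32-fold higher at 30 min and 1.35-fold higher at 60 min. Srebf2 was 1.17-fold higher at 60 min. The storage enzyme gene Soat1, the second exporter gene Abcg1 and the late synthesis enzyme gene Sc5d were lower at 60 min by 1.08-fold to 1.14-fold.

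Genes were called with edgeR's quasi-likelihood test at a Benjamini-Hochberg adjusted p under 0.05 over all 14246 genes tested. At 30 min 3 of 32 members were called higher (9.38%, against 4.84% of all genes tested) and 0 lower (3.35% of all genes), where 8.18% of all genes were called in either direction. DESeq2 called 4 higher and 0 lower, limma-voom 3 and 0, and without adjustment 7 were higher and 1 lower by edgeR (p under 0.05). At 60 min 3 members were called higher (9.38%, against 13.3% of all genes) and 3 lower (9.38%, against 11.7%). The comparisons at 30 and 60 min share the 0 min libraries. From 30 to 60 min 2 were called higher (6.25%, against 8.87% of all genes) and 2 lower (6.25%, against 7.65%). Scaled by library totals alone, edgeR called 3 members higher against 9 lower after 60 min (1313 and 3048 of all genes, against 1891 and 1671 with TMM). From 30 to 60 min this scaling gave 1 higher against 6 lower (1005 and 1672 of all genes, against 1263 and 1090 with TMM). In either direction 25% of all genes were called at 60 min and 16.5% from 30 to 60 min. The median log2 change over the members was 0.03 after 30 min and -0.01 after 60 min, and -0.05 between these times. Over all genes tested it was 0.01, 0.00 and 0.00.

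**Figure D1:**
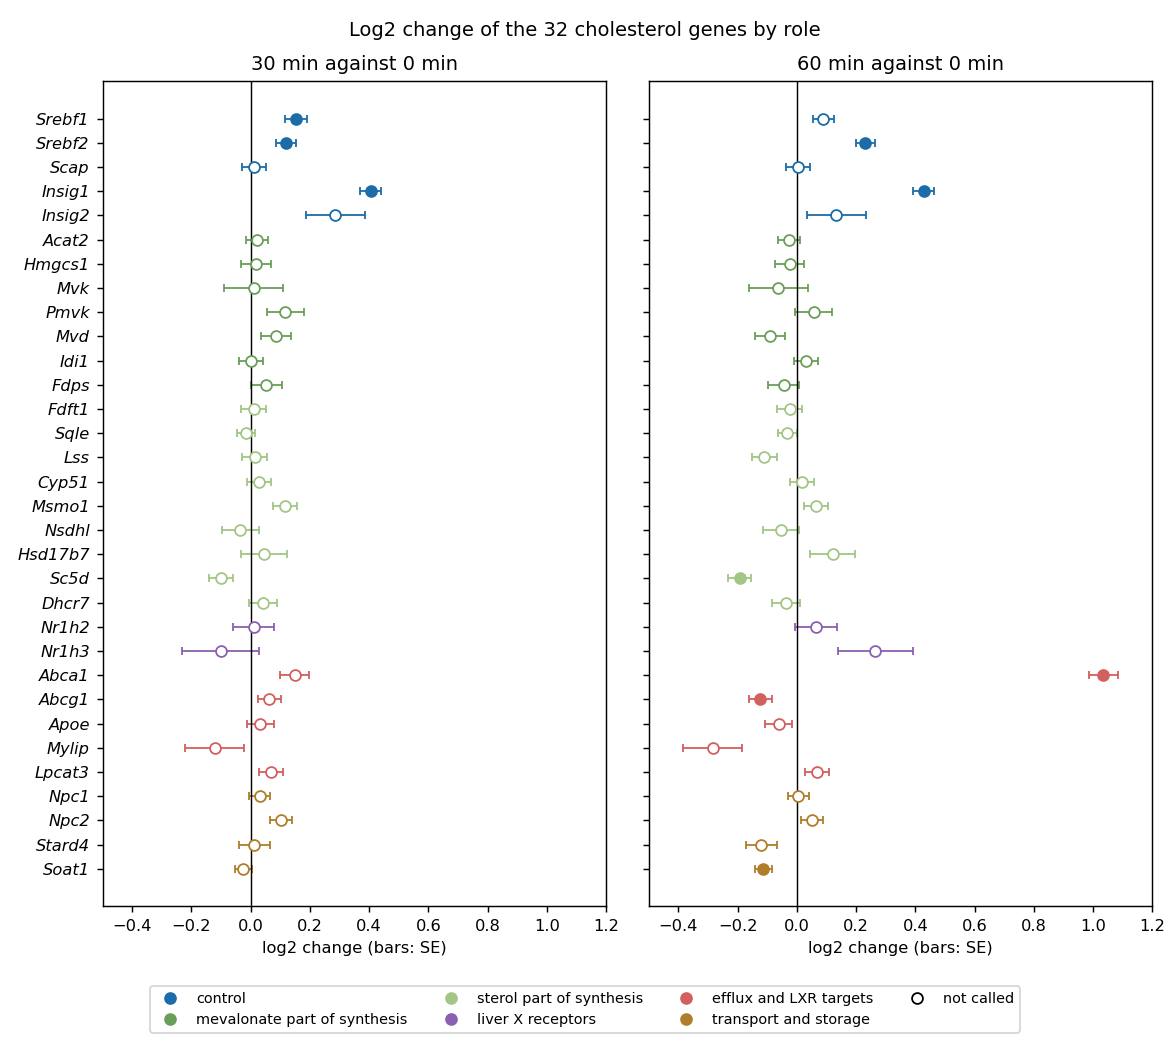
Log2 change (horizontal axis, bars are SE) of each of the 32 genes at 30 min and at 60 min against 0 min, coloured by role, with filled points for called genes and open points for the others. Abca1 stands at 1.03 at 60 min, Insig1 near 0.4 in both panels, and the 16 synthesis enzymes lie between -0.19 and 0.12.

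**Figure D2:**
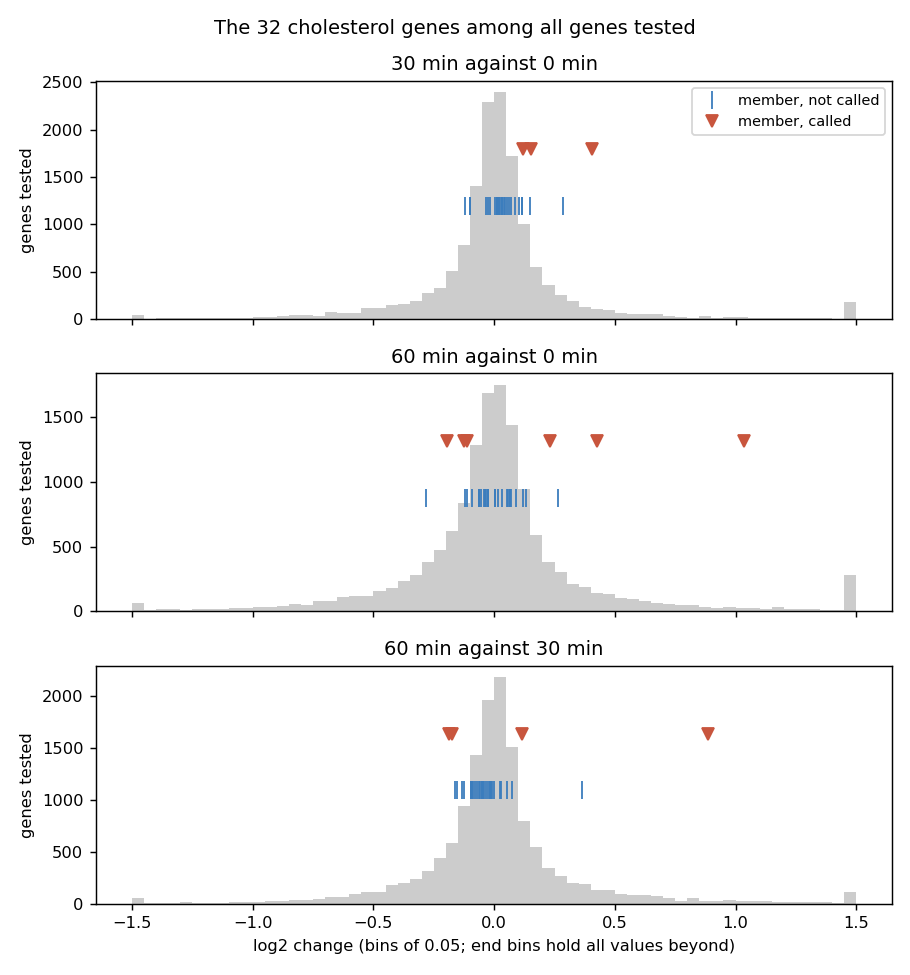
Histograms of the log2 changes of all 14246 genes tested (grey bars, number of genes per bin of 0.05) in the 3 comparisons, with the 32 members marked as blue ticks (not called) and red triangles (called), whose height carries no value. Most members lie in the centre of each histogram, and Abca1 is the farthest out at 60 min.

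Of the 5 sterol-sensing control genes, 3 were called at 30 min and 2 at 60 min, all higher. Of all genes tested, 4.84% were called higher at 30 min and 13.3% at 60 min. Insig1 (ENSMUSG00000045294.11, chromosome 5, 28071363 to 28078662, plus strand of GRCm38) encodes a membrane protein that retains Scap and is itself a classic SREBP target. It was at 101, 104 and 103 CPM at 0 min, 139, 131 and 137 CPM at 30 min, and 136, 141 and 138 CPM at 60 min. All 6 libraries with LPS lay above all 3 without it, and those of 30 and 60 min overlapped. The log2 change was 0.41 (SE 0.035, edgeR adjusted p = 1.78e-06) at 30 min and 0.43 (SE 0.035, edgeR adjusted p = 3.57e-07) at 60 min. From 30 to 60 min it was 0.02 (SE 0.034, edgeR adjusted p = 0.728). All 17 alternatives kept the calls of Insig1 at both times.

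Insig2, the paralog with a like retaining function, had far fewer counts, at 8.10 to 9.57 CPM at 0 min, 9.71 to 11.7 CPM at 30 min and 8.62 to 9.87 CPM at 60 min. The 30 min libraries lay above those of 0 min, but the log2 change of 0.29 (SE 0.10) was not called (edgeR adjusted p = 0.1). The ratio of Insig1 to Insig2 was 12.0 ± 1.11 at 0 min, 13.0 ± 1.07 at 30 min and 14.7 ± 1.16 at 60 min (SD, n = 3 each). It did not pass an exact permutation test for any difference among the 3 times (p = 0.0643, adjusted p = 0.0804 over 5 ratios). The smallest p the design allows is 0.00357. The rise of Insig1 is thus not shown to differ from the change of Insig2.

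Srebf2 (ENSMUSG00000022463.8, chromosome 15, 82147181 to 82205379, plus strand), the source of SREBP-2, the main activator of cholesterol synthesis genes, was at 288, 282 and 290 CPM at 0 min. It was at 307, 303 and 323 CPM at 30 min and 334, 335 and 340 CPM at 60 min. The 3 times did not overlap, and the level at 60 min was above that at 30 min in every library. The log2 change was 0.23 (SE 0.033, edgeR adjusted p = 0.000121) at 60 min and 0.11 (SE 0.033, edgeR adjusted p = 0.0303) from 30 to 60 min. At 30 min it was 0.12 (SE 0.033, edgeR adjusted p = 0.0425), a call that was lost in 14 of 17 alternatives (adjusted p = 0.0544 to 0.19), among them leaving out any 1 of the 9 libraries. The call from 30 to 60 min was lost in 6, namely with library totals alone (0.167) and without 30 min replicate 1 or 2 or any 60 min replicate.

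Srebf1, the source of SREBP-1a and of SREBP-1c, which mainly drives fatty acid synthesis genes, was at 83.8, 78.8 and 81.8 CPM at 0 min. It was at 89.5, 89.9 and 92.2 CPM at 30 min and 84.9, 89.2 and 85.9 CPM at 60 min. Both later groups lay above the 0 min libraries. The log2 change was 0.15 at 30 min (SE 0.036, edgeR adjusted p = 0.0184) and 0.09 at 60 min (SE 0.036, edgeR adjusted p = 0.0917). The call at 30 min was lost without 0 min replicate 2 (adjusted p = 0.0683) or 30 min replicate 3 (0.0733). Exons of Srebf1 overlap those of Rai1 on the opposite strand, which had 121% of its counts and a log2 change of -0.01 at 30 min (edgeR adjusted p = 0.903). The strand setting of the counting is not given in the sources used here, so for such pairs reads of both genes may not have been told apart.

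The ratio of Srebf2 to Srebf1 was 3.52 ± 0.0742 at 0 min, 3.44 ± 0.062 at 30 min and 3.88 ± 0.11 at 60 min (SD, n = 3). All 60 min libraries lay above the other 6 (exact permutation p = 0.00714, adjusted p = 0.0268 over 5 ratios). The counts do not separate the SREBP-1a and SREBP-1c transcripts. Scap, the escort of both precursors, was at 79.1 to 86.8 CPM over the 9 libraries, with log2 changes of 0.01 at 30 min and 0.00 at 60 min, neither called.

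**Figure D3:**
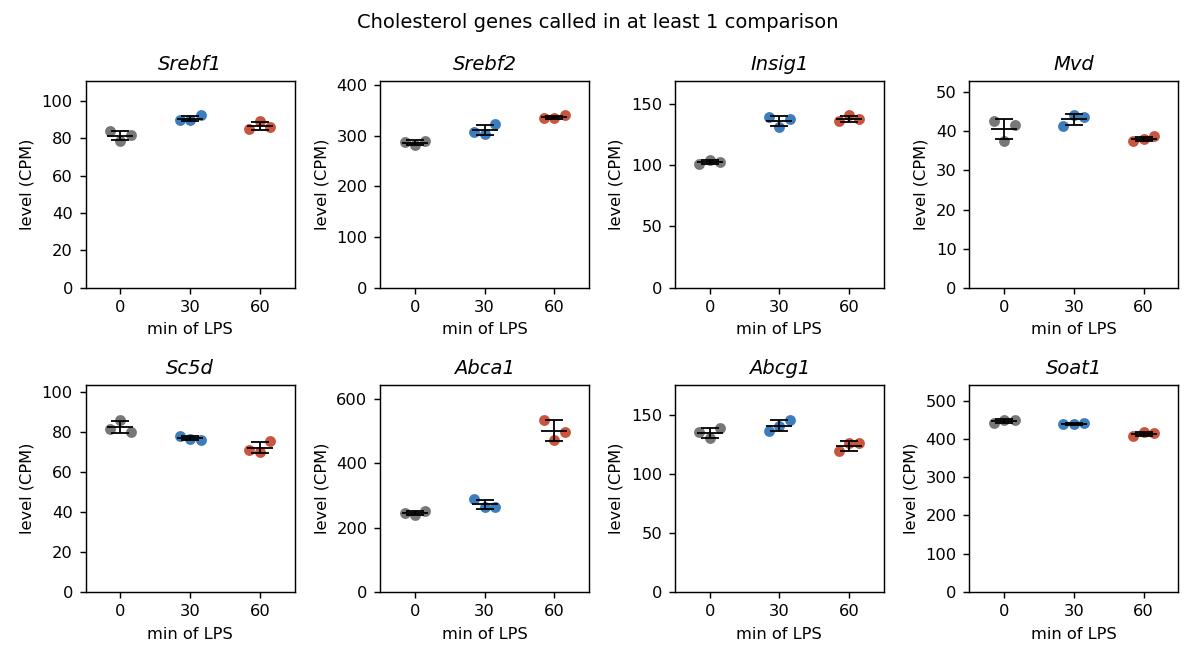
Level (CPM, axis from 0) of the 8 genes called in at least 1 comparison, by min of LPS. Points are libraries, and the bars are the mean and SD of 3 libraries. Insig1 is at its later level by 30 min, Abca1 rises between 30 and 60 min, and the changes of Sc5d, Abcg1, Soat1 and Mvd are small against their levels.

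The summed level of the 16 enzymes was 1184 ± 7.25 CPM at 0 min, 1201 ± 5.36 CPM at 30 min and 1165 ± 5.99 CPM at 60 min (SD, n = 3). The lowest and highest libraries were 1177 and 1191 CPM at 0 min, 1197 and 1207 CPM at 30 min, and 1159 and 1171 CPM at 60 min, so the 3 times did not overlap. With library totals as the only scaling the sums were 1211, 1205 and 1136 CPM, and the 30 min libraries then overlapped those of 0 min. At 30 min edgeR called 0 of the 16 in either direction, as did DESeq2 and limma-voom, and without adjustment 1 was higher and 1 lower (p under 0.05). At 60 min Sc5d alone was called, lower, and between 30 and 60 min Mvd alone, also lower. Of the 16 log2 changes, 3 were below 0 at 30 min (47.8% of all genes tested), 11 at 60 min (49.8%) and 14 from 30 to 60 min (49.6%), comparisons that share libraries.

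In the mevalonate part, which builds the isoprenoid units, Mvd was the member called. Mvd, the decarboxylase that forms isopentenyl diphosphate, was at 42.6, 37.6 and 41.6 CPM at 0 min, 41.4, 44.1 and 43.8 CPM at 30 min, and 37.6, 38.0 and 38.7 CPM at 60 min. The 60 min libraries lay below those of 30 min and overlapped those of 0 min. The log2 change was -0.18 from 30 to 60 min (SE 0.050, edgeR adjusted p = 0.026) and -0.09 from 0 to 60 min (edgeR adjusted p = 0.214). The call from 30 to 60 min was lost without 30 min replicate 2 or 3 or 60 min replicate 1 or 2 (adjusted p = 0.0735 to 0.107).

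The other mevalonate genes were not called. Hmgcs1, which makes a precursor of mevalonate and whose promoter is printed with its sterol element, was at 124 to 143 CPM at 0 min, 134 to 140 CPM at 30 min and 127 to 138 CPM at 60 min. Acat2, which supplies acetoacetyl-CoA, was at 76.0 to 81.8 CPM over the 9 libraries. The kinase genes Mvk and Pmvk were at 12.2 to 15.7 CPM and 15.2 to 18.1 CPM. Idi1, the isomerase, was at 133 to 144 CPM, and Fdps, which makes farnesyl diphosphate, at 110 to 129 CPM. Their log2 changes lay between 0.00 and 0.12 at 30 min and between -0.06 and 0.06 at 60 min, and the SE of these 6 genes and Mvd was 0.037 to 0.099.

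In the sterol part, which runs from squalene to cholesterol, Sc5d was called. Sc5d, a desaturase of a late step, was at 81.4, 86.3 and 80.2 CPM at 0 min, 78.3, 76.7 and 76.2 CPM at 30 min, and 71.1, 70.2 and 75.4 CPM at 60 min. Each later time lay below the one before it. The log2 change was -0.10 at 30 min (SE 0.040, edgeR adjusted p = 0.159) and -0.19 at 60 min (SE 0.040, edgeR adjusted p = 0.00247), and all 17 alternatives kept the call at 60 min. Lss, which closes the sterol ring, had values of 46.0 to 49.1 CPM at 0 min and 41.9 to 45.1 CPM at 60 min that did not overlap. Its log2 change of -0.11 (SE 0.042) was not called (edgeR adjusted p = 0.0724), though it was with library totals alone (adjusted p = 0.00631).

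The other sterol enzymes were not called. Squalene synthase (Fdft1) was at 47.7 to 53.0 CPM over the 9 libraries, and Sqle, the squalene epoxidase and a rate-limiting enzyme of this part, at 129 to 134 CPM. The ratio of Sqle to Lss, the enzymes of successive steps, was 2.79 ± 0.143 at 0 min, 2.73 ± 0.0658 at 30 min and 2.95 ± 0.121 at 60 min (exact permutation p = 0.136). The demethylation enzymes Cyp51, Msmo1, Nsdhl and Hsd17b7 were at 128 to 140, 79.9 to 94.6, 28.8 to 33.5 and 20.1 to 25.6 CPM. Dhcr7, the reductase of a last step, was at 54.5 to 62.9 CPM. Msmo1 was at 79.9 to 87.9 CPM at 0 min and 89.5 to 94.6 CPM at 30 min, without overlap, with a log2 change of 0.12 (SE 0.040, edgeR adjusted p = 0.104). Exons of Fdft1 and Cyp51 overlap those of the opposite-strand genes Ctsb and Akap9, of which Ctsb was called higher at 60 min (log2 change 0.14, edgeR adjusted p = 0.00794). Ctsb had 1350% of the counts of Fdft1, and Akap9 had 128% of those of Cyp51.

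On the efflux side Abca1 rose and Abcg1 fell by 60 min. Abca1 (ENSMUSG00000015243.4, chromosome 4, 53030787 to 53159895, minus strand) encodes the transporter that loads cholesterol onto lipid-poor apolipoprotein A-I, and its promoter is printed with the DR4 match. It was at 244, 239 and 253 CPM at 0 min, 288, 265 and 264 CPM at 30 min, and 536, 472 and 499 CPM at 60 min. The 3 times did not overlap. The log2 change at 30 min was 0.15 (SE 0.049, edgeR adjusted p = 0.0819). It was called with DESeq2 (adjusted p = 0.0396), in the authors' deposited table and with no filter on low counts (0.00846). At 60 min it was 1.03 (SE 0.049, edgeR adjusted p = 1.09e-09), larger in size than that of 95.4% of all genes tested. From 30 to 60 min it was 0.88 (SE 0.049, edgeR adjusted p = 4.97e-08).

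Abcg1, whose transporter passes cholesterol to mature HDL particles and which is an LXR target like Abca1, was lower at 60 min. Abcg1 was at 136, 130 and 139 CPM at 0 min, 136, 141 and 146 CPM at 30 min, and 119, 127 and 126 CPM at 60 min. All 60 min libraries lay below the other 6. The log2 change was -0.12 at 60 min (SE 0.039, edgeR adjusted p = 0.0345) and -0.19 from 30 to 60 min (SE 0.039, edgeR adjusted p = 0.00432). The call at 60 min was lost without 0 min replicate 1 or 3 or 60 min replicate 1 or 2 (adjusted p = 0.0527 to 0.129), and the authors' deposited table did not call it; that from 30 to 60 min was kept in all 17 alternatives. The ratio of Abca1 to Abcg1 was 1.82 ± 0.0172 at 0 min, 1.93 ± 0.161 at 30 min and 4.06 ± 0.398 at 60 min (SD, n = 3), and all 60 min libraries lay above the other 6. The exact permutation p was 0.0107 (adjusted p = 0.0268 over 5 ratios, and 0.0625 without 0 min replicate 1).

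The other LXR targets among the members were not called. Apoe, the apolipoprotein that accepts exported cholesterol, was at 52.9 to 61.3 CPM over the 9 libraries. Lpcat3, which makes polyunsaturated phospholipids, was at 65.8 to 73.6 CPM, and its exons overlap those of the opposite-strand gene Emg1. Emg1 had 117% of the counts of Lpcat3. Mylip, a ubiquitin ligase that lowers lipoprotein uptake, was at 13.6 to 16.7 CPM at 0 min, 12.4 to 14.6 CPM at 30 min and 11.3 to 13.8 CPM at 60 min. Its log2 change at 60 min was -0.28 (SE 0.10, edgeR adjusted p = 0.0523), and 7 of 17 alternatives called it lower, DESeq2 among them (adjusted p = 0.045).

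The receptors themselves were not called, and Nr1h3 was lowly expressed. Nr1h2 was at 21.4 to 25.7 CPM and Nr1h3 at 3.69 to 5.73 CPM over the 9 libraries. Nr1h3 was at 4.02 to 4.34 CPM at 30 min and 4.99 to 5.73 CPM at 60 min, without overlap, and the log2 change of 0.37 (SE 0.13) was not called (edgeR adjusted p = 0.0699). It was called in 4 of 17 alternatives. By edgeR 0 of both receptors were called in any comparison; at an unadjusted p under 0.05 there was 1, Nr1h3 from 30 to 60 min, and 0 by DESeq2 or limma-voom. The ratio of Nr1h3 to Nr1h2 was 0.19 ± 0.0239, 0.177 ± 0.00749 and 0.22 ± 0.0224 at the 3 times (exact permutation p = 0.0643).

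Among the transport and storage genes, Soat1 fell. Soat1, which esterifies cholesterol for storage in lipid droplets, was at 441, 450 and 449 CPM at 0 min, 438, 438 and 442 CPM at 30 min, and 408, 417 and 415 CPM at 60 min. All 60 min libraries lay below the other 6. The log2 change at 60 min was -0.11 (SE 0.030, edgeR adjusted p = 0.012), a call kept in all 17 alternatives. Stard4, a soluble sterol carrier, was at 54.7 to 62.4 CPM at 0 min and 52.5 to 53.6 CPM at 60 min, without overlap, and was not called (log2 change -0.12, SE 0.052, edgeR adjusted p = 0.11). Npc1 and Npc2, which pass cholesterol out of the lysosome, were at 108 to 115 CPM and 120 to 136 CPM over the 9 libraries, and neither was called. Exons of Npc1 overlap those of Rmc1 on the opposite strand, which had 26.7% of the counts of Npc1.

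Groups that do not overlap were counted as well. At 30 min the libraries of 8 members lay wholly above those of 0 min and those of 1 wholly below, against 14.1% and 11.7% of all genes tested. At 60 min 4 lay above and 5 below those of 0 min, against 19.6% and 18.7%. From 30 to 60 min 3 lay above and 11 below, which is 9.38% and 34.4% of the members against 17.1% and 16.7% of all genes tested. The 11 were Srebf1, Fdps, Mvd, Lss, Msmo1, Sc5d, Abcg1, Apoe, Npc2, Stard4 and Soat1, named after their values were seen. Of these, Mvd and Abcg1 passed the gene test.

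Per length of annotated exon, levels at 0 min ran from 1.77 CPM per kb for Nr1h3 to 45.7 CPM per kb for Soat1. Soat1 was followed by Srebf2 (39.9) and Idi1 (38.9), whose libraries overlapped, then Insig1 (33.2) and Acat2 (31.1 CPM per kb). From Acat2 through Cyp51, Hmgcs1 and Fdps to Apoe, the libraries of each gene overlapped those of the next. At the low end stood Mvk, Mylip, Lss, Hsd17b7, Insig2 and Nr1h3, from 5.15 to 1.77 CPM per kb. At 60 min Abca1 had the highest mean length-scaled level, 48.5 CPM per kb against 23.7 at 0 min, followed by Srebf2 (46.8), Insig1 (44.7) and Soat1 (42.2 CPM per kb). The 60 min libraries of Abca1 (45.6 to 51.8 CPM per kb) overlapped those of Srebf2 (46.5 to 47.3 CPM per kb). The lengths are those of all annotated exons of a gene together, not of the transcripts these cells use.

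**Figure D4:**
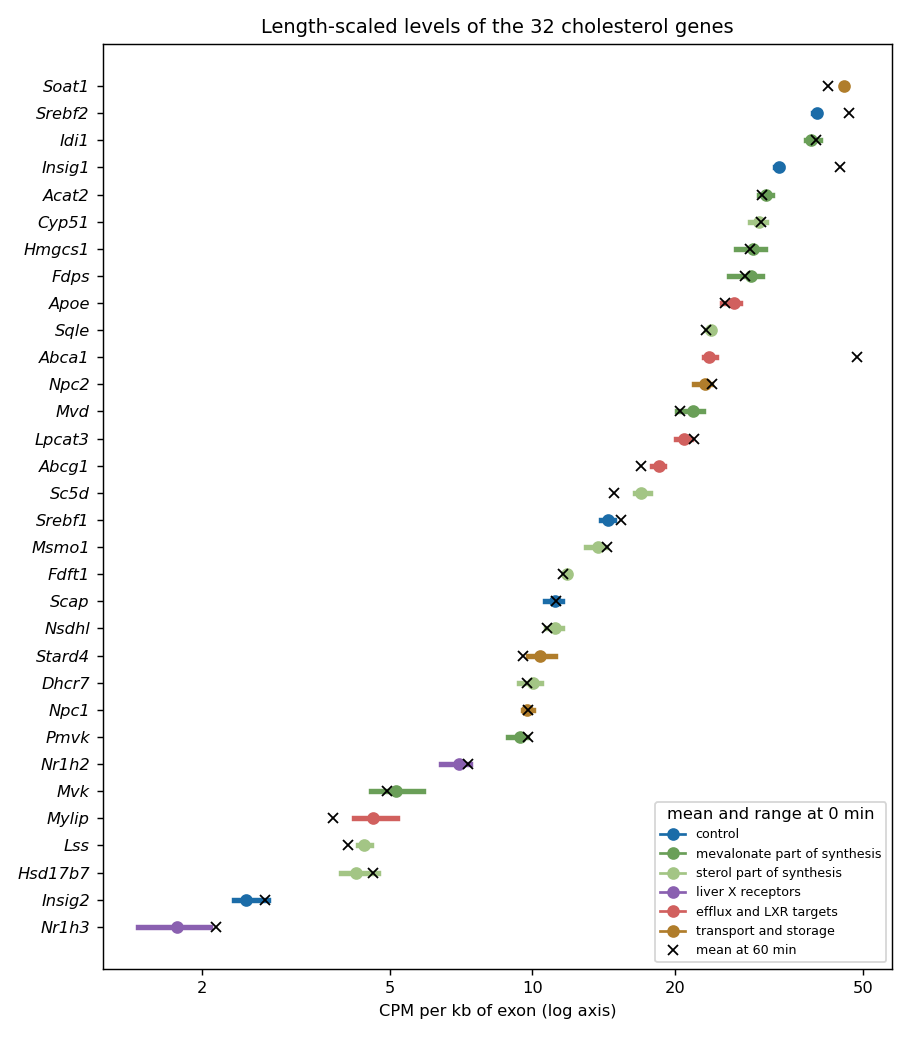
Length-scaled level (CPM per kb of exon, log axis) of the 32 genes in order of their mean at 0 min. Coloured points and lines are the mean and range of the 3 libraries at 0 min, by role, and crosses are the mean at 60 min. Abca1 moves from 23.7 to 48.5 CPM per kb, while for most genes the cross lies on or near the range at 0 min.

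Companion genes of the pathway, from lists set by name, were read beside the members. The lists were chosen with earlier results of these data known. For comparison with their counts, 4.84% of all genes tested were called higher and 3.35% lower at 30 min. At 60 min the shares were 13.3% and 11.7%. Of 8 tested further sterol and isoprenoid enzymes, edgeR called 0 at 30 min (0 without adjustment at p under 0.05, 0 by DESeq2 or limma-voom), and 2 rose and 1 fell at 60 min. Cyb5r3, which feeds electrons to sterol desaturation and demethylation, rose from 74.0 to 85.1 CPM (log2 change 0.20, edgeR adjusted p = 0.00142). Por, the electron donor of Cyp51 and Sqle, rose by a log2 change of 0.11 (edgeR adjusted p = 0.0439, lost in 12 of 17 alternatives). Tm7sf2, a sterol reductase, fell from 2.63 to 1.48 CPM (log2 change -0.82, edgeR adjusted p = 0.0241), a call lost without 0 min replicate 1 or 3 or 60 min replicate 1 or 2 (adjusted p = 0.0711 to 0.107). The symbol Faxdc2 was not found in the table.

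Of 11 genes for SREBP processing and sterol-regulated decay, edgeR called 0 at 30 min (0 without adjustment, 0 by DESeq2 or limma-voom). By 60 min Mbtps1 and Paqr3 had risen and 0 had fallen. Mbtps1, the protease that makes the first cut of SREBPs, rose by 0.11 on the log2 scale (edgeR adjusted p = 0.0363), and Paqr3, a Golgi anchor of Scap, by 0.35 (0.042). DESeq2 called neither, and their calls were lost in 9 and 11 of 17 alternatives.

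Of 12 fatty acid synthesis genes, edgeR called 0 at 30 min (1 higher without adjustment, 0 by DESeq2 or limma-voom), and 1 rose and 2 fell at 60 min. The elongase gene Elovl5 rose from 118 to 140 CPM (log2 change 0.24, edgeR adjusted p = 6.67e-05). The desaturase gene Scd2 fell from 1467 to 1238 CPM (-0.24, edgeR adjusted p = 0.000155). Mid1ip1, which promotes acetyl-CoA carboxylase activity, fell by 0.16 on the log2 scale (edgeR adjusted p = 0.0487, lost in 11 of 17 alternatives).

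Of 7 tested further LXR targets, 1 rose and 0 fell at 30 min and 1 rose and 1 fell at 60 min. Arl4c, a small GTPase gene, was at 51.6, 55.2 and 54.4 CPM at 0 min, 98.2, 99.1 and 92.6 CPM at 30 min, and 112, 113 and 108 CPM at 60 min. Its log2 change was 0.85 at 30 min (SE 0.041, edgeR adjusted p = 4.33e-09) and 1.05 at 60 min (SE 0.041, edgeR adjusted p = 1.92e-10). Lpl, the lipoprotein lipase gene, fell from 1025 to 879 CPM at 60 min (-0.22, edgeR adjusted p = 0.00742). Without 0 min replicate 2, the highest of its group, the log2 change was -0.14 (edgeR adjusted p = 0.00943). Of the 6 LXR partners and corepressors, such as Rxra and Ncor1, edgeR called 0 in any comparison (0 without adjustment, 0 by DESeq2 or limma-voom).

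Of 9 tested lipoprotein uptake receptors and helpers, edgeR called 0 at 30 min (1 higher without adjustment, 0 by DESeq2 or limma-voom). At 60 min 4 were called higher and 0 lower, against 13.3% and 11.7% of all genes tested. Among the 4 was Olr1, which passed the filter on low counts through its 60 min libraries alone. Stab1, a scavenger receptor gene, rose from 45.6 to 73.9 CPM (log2 change 0.70, edgeR adjusted p = 1.22e-08). Cxcl16, which encodes a membrane chemokine that also binds oxidized lipoprotein, rose from 0.472 to 2.00 CPM (2.07, edgeR adjusted p = 5.98e-05). Lrpap1, a chaperone of lipoprotein receptors, rose from 62.4 to 72.8 CPM (0.22, edgeR adjusted p = 0.0013). Olr1, a receptor for oxidized lipoprotein, had 0, 1 and 1 counts at 0 min, 5, 7 and 1 at 30 min, and 12, 19 and 16 at 60 min, and nothing is read from its call. Msr1, Cd36, Scarb1, Lrp1 and Marco (4 to 17 counts per library) were not called. Vldlr had 0 counts in all 9 libraries, which allows up to 0.0116 CPM over them together, counting error only.

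Of 10 tested genes of lysosomal and intracellular sterol transport, edgeR called 0 at 30 min (1 higher and 2 lower without adjustment, 0 by DESeq2 or limma-voom), and 1 rose and 3 fell at 60 min. Gramd1b and Gramd1a, which encode sterol carriers that move cholesterol from the plasma membrane to the endoplasmic reticulum, went opposite ways. Gramd1b rose from 95.7 to 118 CPM (log2 change 0.30, edgeR adjusted p = 0.00016) and Gramd1a fell from 37.4 to 31.2 CPM (-0.26, edgeR adjusted p = 0.000606). Lipa, the lysosomal lipase that frees cholesterol from its esters, fell from 248 to 213 CPM (-0.22, edgeR adjusted p = 0.00593), and Osbpl11 fell from 32.7 to 27.8 CPM (-0.23, edgeR adjusted p = 0.0123). The log2 change of Lipa was -0.14 without 0 min replicate 2, the highest of its group (edgeR adjusted p = 0.011).

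Of the 7 genes of sterol esters and lipid droplets, 0 were called in any comparison by edgeR, DESeq2 or limma-voom, with 1, 2 and 0 higher and 0 lower at an unadjusted p under 0.05 in the 3 comparisons. Of 4 tested oxysterol genes, edgeR called 0 at 30 min (0 without adjustment, 0 by DESeq2 or limma-voom), and 0 rose and 1 fell at 60 min. It was Gpr183, a receptor for a dihydroxycholesterol, which fell from 19.4 to 12.6 CPM (log2 change -0.62, edgeR adjusted p = 7.35e-05). Cyp27a1, which makes an oxysterol that activates LXR, was at 21.3 to 29.2 CPM and was not called. Ch25h, the cholesterol 25-hydroxylase, and Cyp7b1 had 0 counts in all 9 libraries.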

How the data were processed

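Ribosome-depleted RNA of the 9 libraries was sequenced from a stranded kit, per the labels' protocols. The submitters' processing notes name RSEM 1.3.1, STAR 2.7.0f, cutadapt 1.18, DESeq2 and build mm10. The strand setting of the counting is not given in the sources used here. The authors deposited RSEM's expected counts per gene, an expected count being an estimated count of the library's reads that need not be whole, of which 5.04% to 5.32% of values per library were not whole, and these were rounded. The authors also deposited tables of log2 fold changes and adjusted p-values, which were set beside the values computed here. edgeR 4.0.16 in R 4.3.3 was run on all 9 libraries with TMM scaling, its filter on low counts and the quasi-likelihood test, two-sided. Benjamini-Hochberg adjustment was over 14246 genes with a threshold of 0.05. The same fit was run on simulated counts in which all genes had the same relative spread (dispersion 0.0027). That run does not show how the test behaves where the spread differs between genes. DESeq2 1.42.0, limma-voom (limma 3.58.1), other scalings and filters, a replicate block, only the compared times, and leaving out each library were the 17 alternatives. Replicate pairs differed by a mean chi-square per gene of 4.74 to 17.3 (median 0.856 to 1.32), and all 9 libraries were counted separately. All 55450 identifiers matched GENCODE M21. Positions are GRCm38.

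Ratios were tested by exact permutation of the 9 libraries, for any difference among the 3 times. Members called in any comparison are given in every library and the others by range. Companion lists give up to 3 called genes per direction at 60 min and up to 2 at 30 min, by size of log2 change, with a mean of at least 1 CPM. The members and lists were chosen with earlier results of these data known, and the promoter motifs after some sequences had been seen. Where the labels do not say that libraries came from separate cultures, p-values measure the spread between these libraries, which may be technical.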

Additional observations from a re-analysis of the deposited data

Results flagged for a closer look

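For 4 genes the change at 60 min differed from that at 30 min, tested as 60 min against 30 min in the same edgeR fit. The difference in log2 change was 0.88 for Abca1 (adjusted p = 4.97e-08), -0.19 for Abcg1 (0.00432), -0.18 for Mvd (0.026) and 0.11 for Srebf2 (0.0303). The differences of Mvd and Srebf2 were lost when single libraries were left out (adjusted p = 0.0735 to 0.107 for Mvd and 0.0704 to 0.146 for Srebf2). Each group has 3 libraries, so single libraries were not tested as outliers.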

How the results depend on the processing

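Of 1632 recomputed member values 1572 stayed on their side of the threshold, 30 gained a call and 30 lost one. In 84 the sign changed, 0 of them called in either fit. With library totals as the only scaling, which moved the median log2 change of all genes to -0.02, -0.068 and -0.041 in the 3 comparisons, 9 members rather than 3 were lower at 60 min, and from 30 to 60 min 1 rather than 2 was higher and 6 rather than 2 lower. At 60 min this scaling gave log2 changes of -0.19 for Abcg1, -0.18 for Soat1 and 0.13 for Cyb5r3, against -0.12, -0.11 and 0.20. The cause was not tested. With single libraries left out, members higher at 30 min numbered 1 to 2 against 3, members lower at 60 min 2 to 5 against 3, and from 30 to 60 min 1 to 3 higher and 1 to 5 lower against 2 and 2. The log2 change at 60 min of the ratio of Insig1 to Insig2 was 0.21 to 0.34 over the left-out libraries. The ratio passed the exact permutation test over all times without 30 min replicate 3 (log2 change 0.29, adjusted p = 0.0298). The log2 change at 60 min of the ratio of Abca1 to Abcg1 was 1.08 to 1.21. That ratio did not pass the same test without 0 min replicate 1 (1.15, adjusted p = 0.0625). No pairing of the libraries by replicate number was seen. The deviations of same-numbered libraries correlated at -0.0841 to 0.0242, and those of differently numbered libraries at -0.0603 to 0.106. Correlations over all genes cannot exclude a pairing that touches some genes. With the replicate block, 2 members were higher at 30 min and 0 lower, 3 higher and 3 lower at 60 min, and 2 higher and 2 lower from 30 to 60 min. Exact permutations within the block allow no p below 0.0278. By exact permutation that smallest p was reached by the ratios of Insig1 to Insig2 (0.29, adjusted p = 0.0694) and Srebf2 to Srebf1 (0.14, adjusted p = 0.0694). Neither p could be lower, so these adjusted values say nothing about stability. The ratio of Abca1 to Abcg1 had an exact permutation p of 0.0556 (1.15, adjusted p = 0.0926), above the smallest p, and did not pass within the block.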
